A study of Mus musculus with 20 samples.

Results

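The Mettl3 KO2 line was set against the Mettl3 control by asking which stretches of chromatin-associated RNA carried an m6A-immunoprecipitation peak in one group and not in the other. Both groups were C57BL/6 mouse embryonic stem cells, kept in medium with LIF and the inhibitors CHIR99021 and PD0325901, and both RNA preparations were depleted of ribosomal RNA. KO2 was 1 of the 2 Mettl3 knockout lines of the study, and the control was the line labelled Mettl3 control. Each group had 2 immunoprecipitated libraries, so these 4 were used of the 10 immunoprecipitated samples and the 20 samples in all. The labels give neither the mutation of KO2 nor whether the line is a single clone, and they do not tell whether the 2 libraries of each line are separate cultures, so the p-values here reflect no more than the spread among these libraries, which may be technical. Peaks of the 4 libraries that overlapped by at least 1 bp on the same strand were merged into 63116 regions, against 87498 regions when all 10 immunoprecipitated samples were merged. A region was called lost when both controls and neither KO2 library held a peak, gained in the reverse case and kept when all 4 libraries held one. By this rule KO2 lost 7040 of 38193 control regions (18.4%), gained 5161 of its own 35085 regions (14.7%) and kept 26854.

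N6-methyladenosine (m6A) is a methyl mark on adenosines inside RNA, written while the RNA is being made by a complex whose catalytic subunit is METTL3, with METTL14, WTAP, VIRMA and further partners. The complex prefers the sequence context DRACH, in which D is A, G or T, R is A or G, and H is A, C or T, and the commonest core of it is GGAC. In embryonic stem cells the mark is known to shorten the life of many messenger RNAs, those of pluripotency factors included, and on chromatin-associated RNA it is bound by the nuclear reader YTHDC1. In this assay an antibody to m6A pulls down RNA fragments, and a peak marks where sequenced fragments pile up over their surroundings. A missing peak can mean a less methylated transcript or less of the transcript. It can also mean a signal that fell under the peak caller's threshold through depth or background. In these peak lists these cannot be told apart, and the input libraries were not analysed here.

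The letters under the strongest regions show what the antibody pulled down in each class. Each window is centred on the summit of the strongest peak, reads 5′ to 3′ along the transcript (GENCODE M21, mm10 coordinates for the region) and has DRACH matches in capitals. Windows are 61 nt long in coding exons and 29 nt long in untranslated regions (UTRs). The first set holds 4 of the 5 strongest lost regions in coding exons and a lost 5′ UTR, at chr13:16026298-16026772 plus for Inhba, chr3:107748500-107749072 minus for Csf1, chr12:112774660-112775293 minus for Ahnak2, chr4:138125785-138126610 plus for Eif4g3 and chr16:45093901-45094323 plus for Ccdc80.
Inhba, lost: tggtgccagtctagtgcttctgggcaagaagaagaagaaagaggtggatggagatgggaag
Csf1, lost: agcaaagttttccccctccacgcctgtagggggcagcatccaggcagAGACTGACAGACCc
Ahnak2, lost: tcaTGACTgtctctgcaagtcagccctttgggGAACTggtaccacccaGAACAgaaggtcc
Eif4g3, lost: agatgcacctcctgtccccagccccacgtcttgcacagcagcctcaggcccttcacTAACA
Ccdc80, lost: AGACCcaggagAAACTgcAGACAaatgga
The second set holds the 5 strongest gained regions in coding exons and the strongest gained region in genes, a 3′ UTR of Grk3. They lie at chr13:54611082-54611315 minus for Cltb, chrY:725240-726577 minus for Zfy1, chr11:100266982-100267350 minus for Krt42, chr5:129854573-129854956 plus for Sumf2, chrX:37191452-37192139 plus for Rnf113a1 and chr5:112960412-112960692 minus for Grk3.
Cltb, gained: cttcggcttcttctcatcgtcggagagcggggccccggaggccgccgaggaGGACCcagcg
Zfy1, gained: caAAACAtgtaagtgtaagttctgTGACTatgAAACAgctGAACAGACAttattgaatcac
Krt42, gained: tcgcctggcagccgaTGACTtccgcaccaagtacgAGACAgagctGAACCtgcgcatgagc
Sumf2, gained: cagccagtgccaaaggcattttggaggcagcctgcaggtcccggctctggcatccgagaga
Rnf113a1, gained: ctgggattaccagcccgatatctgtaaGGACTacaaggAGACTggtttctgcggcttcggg
Grk3, gained: acaaagAAACAaaaaagaaagaaagaaaa
The third set gives 3 of the strongest kept coding regions for comparison, at chr7:97311786-97312432 minus for Usp35, chr10:42196443-42197949 minus for Foxo3 and chr16:46448257-46448984 minus for Nectin3.
Usp35, kept: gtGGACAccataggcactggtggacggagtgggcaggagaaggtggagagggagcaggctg
Foxo3, kept: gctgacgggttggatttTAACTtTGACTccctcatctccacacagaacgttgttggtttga
Nectin3, kept: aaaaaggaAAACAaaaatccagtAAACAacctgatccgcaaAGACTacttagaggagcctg
DRACH matches occur in all 3 sets, and the windows of Inhba (lost) and Sumf2 (gained) hold none. The Grk3 window is mostly A with scattered G. A match is a description of letters and not a mapped m6A site.

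At the level of whole libraries KO2 held somewhat fewer, narrower peaks, and more of them in coding exons. Control libraries 1 and 2 held 45292 and 46735 peaks, and KO2 libraries 1 and 2 held 44496 and 42804. Peaks covered 18.8 and 19.7 Mb in the controls against 16.8 and 16.3 Mb in KO2, with median widths of 275 and 277 bp against 260 and 264 bp. Coding exons held 20.1% and 19.9% of control peaks and 21.3% and 22.0% of KO2 peaks, while stretches outside annotated genes held 15.7% and 15.8% against 13.8% and 13.0%. In each of these values the groups did not overlap, but with 2 libraries against 2 the smallest exact two-sided permutation p is 0.333 (0.458 after Benjamini-Hochberg adjustment over the 11 values tested), so no p under 0.05 was possible. The share of peaks in 3′ UTRs overlapped between the groups, at 10.7% in both controls and 10.5% and 10.8% in KO2. The m6A-bearing control RNA of the enrichment kit, added to every sample, gave a peak in all 4 libraries, with folds of 18.2 and 11.1 in the controls and 22.5 and 23.3 in KO2.

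KO2 and control differed by more regions than the 2 libraries of one group did. Of the regions of control library 1, 13.1% were absent from control library 2, against 28.9% and 30.5% absent from KO2 libraries 1 and 2. For control library 2 the corresponding shares were 16.5%, 30.7% and 32.2%. Of the regions of KO2 library 1, 17.5% were absent from KO2 library 2, against 26.5% and 25.4% absent from the controls, and for KO2 library 2 the shares were 14.02%, 25.1% and 24.0%. Beside the lost, gained and kept regions, 4299 regions of both controls were found in 1 of the KO2 libraries, 3070 regions of both KO2 libraries were found in 1 control, and the other 16692 regions fitted no state. The counts depend on asking for agreement of both libraries. Lost regions numbered 11824 without control library 1 and 10654 without control library 2, and gained regions 8037 without KO2 library 1 and 8906 without KO2 library 2.

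Lost peaks were weak ones for the most part, and a small number of tall ones. The fold enrichment of a peak, as the authors' peak caller gave it, is the pile-up of fragments at the summit over the expected background, and it is used here to rank peaks within a list. Median folds of lost regions were 4.08 and 4.02 in the 2 controls, against 5.93 and 5.76 for kept regions in the same libraries. Gained regions had median folds of 4.36 and 4.33 in KO2, against 5.42 and 5.47 for kept regions there. Their median summit pile-ups were 76 and 82 reads for lost and 100 and 91 reads for gained regions. Lost and gained peaks were also narrower than kept ones, with median widths of 215 and 225 bp when lost, 189 and 185 bp when gained, and 352 and 366 bp in the controls when kept.

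Sorted by height, the share lost was far lower at the top. Height is the smaller of the 2 within-list fold percentiles in the group that defines the region, cut into 5 bins of equal size. From the lowest bin to the highest, 29.9%, 30.02%, 21.8%, 9.27% and 1.19% of control regions were lost. With bins of the −log10 p percentile in place of the fold the lost shares were 41.4%, 30.2%, 15.5%, 4.75% and 0.314%, so the slope was steeper. The gained share of KO2 regions, in bins of fold, was 20.3%, 19.4%, 17.8%, 11.2% and 4.93%. The tallest control regions were therefore nearly all present in KO2 too, while the tallest KO2 regions more often lacked a control peak.

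Mettl3 itself kept a peak in KO2, at a lower level. The gene has 1 region, in a coding exon at chr14:52299727-52300096 minus, with folds of 6.15 and 5.06 in the controls and 3.63 and 2.65 in KO2, and summit pile-ups of 100 and 98 against 58 and 50 reads. The 2 groups did not overlap in either quantity. No peak was listed there in either library of the KO1 line, which shares these controls, and the Ythdc1 control libraries had folds of 6.97 and 3.44. The position of the KO2 mutation is not given in the sources used here, so this peak does not check the label. Ythdc1, the gene of the nuclear m6A reader and the other targeted gene of the study, kept 6 regions and gained an intronic one at chr5:86819945-86820103 plus with folds of 3.47 and 3.06.

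Among the tallest lost regions were transcripts of the immediate early gene Fosb, of secreted signals and of matrix proteins. The Fosb 5′ UTR region (chr7:19309479-19310052, minus), in the gene of an AP-1 transcription factor, had control folds of 13.9 and 13.8 with pile-ups of 257 and 249 reads and no KO2 peak. KO1 folds there were 8.45 and 7.52, and neither Ythdc1 control had a peak. The coding region of Unc13a, a synaptic vesicle priming protein, stood at 12.4 and 10.4 in the controls, and in the Ythdc1 controls at 6.16 and 6.23. Csf1, the growth factor of macrophages, had 12.4 and 9.79, and Inhba, the beta A subunit of activin, had 10.4 and 11.2. Ccdc80, an extracellular matrix protein, had 10.6 and 10.4 in its 5′ UTR. These last genes differed in what was left: both Inhba regions were lost, whereas the Csf1 3′ UTR kept a region with folds of 15.4 and 12.3 in the controls and 3.57 and 4.04 in KO2, and the Ccdc80 coding exon one with 13.6 and 11.1 against 4.85 and 4.46.

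The other 5 of the 10 strongest lost regions in genes lay in Ahnak2, Nhs, Col18a1, Immp2l and Platr31. Ahnak2, a giant scaffold protein, lost its strongest coding region (9.93 and 9.96), which stood at 17.8 and 18.8 in the Ythdc1 controls. The 5′ UTR of Nhs on chromosome X (chrX:162158947-162159706, minus) had 9.87 and 12 in the controls and 9.91 and 10.6 in the Ythdc1 controls. Intronic regions were lost from Col18a1, a basement membrane collagen (chr10:77085306-77085487, minus, 11.1 and 9.68), and from Immp2l, a mitochondrial inner membrane protease (chr12:41379085-41379884, plus, 9.89 and 10.1). The non-coding RNA Platr31 (chr6:127109306-127109917, plus) had 10.6 and 9.08 in the controls, and its single control region was absent from KO2, KO1 and both Ythdc1 controls. Of these 10 strongest lost regions in genes, all but those of Fosb and Platr31 had a peak in at least 1 Ythdc1 control. Like Fosb, the regions of Nhs (9.19 and 8.54), Ahnak2 (7.67 and 8.84) and Unc13a (7.24 and 4.57) had a peak in both KO1 libraries. Col18a1 had one in KO1 library 2 only (7.83). Those of Csf1, Inhba, Ccdc80, Immp2l and Platr31 had none in KO1.

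The strongest gained regions mostly lay in introns. The Grk3 3′ UTR region, in the gene of a kinase that desensitizes G protein-coupled receptors, had KO2 folds of 15.4 and 15.3 with pile-ups of 258 and 230 reads, and no peak in either control. In KO1 it stood at 13.8 and 10.3, and neither Ythdc1 control listed it. An intronic region of Lactbl1 (chr4:136632182-136632478, plus) had 13.6 and 15.2 with pile-ups of 512 and 439 reads, and no peak in KO1 or the Ythdc1 controls. The same held for intronic regions of the kinase gene Stk33 (chr7:109302590-109302865, minus, 14.5 and 12.4), the troponin gene Tnnt1 (chr7:4509078-4509265, minus, 11.5 and 12.1) and the Y-linked zinc finger gene Zfy1 (11.6 and 13.7). Introns of Specc1 (chr11:62199745-62200035, plus) with 13.9 and 12.9, Pla2g10os (chr16:13731774-13732073, plus) with 12.4 and 13.9, and Vps72 (chr3:95119036-95119231, plus), a histone H2A.Z chaperone, with 11 and 12.7 completed the intronic ones. Cltb, the clathrin light chain b, gained an intronic region (12.1 and 13.2) and the coding region shown above (11.3 and 12.6). Gm21596, a gene with a non-coding exon on chromosome 2, had 17 and 11.8. Several of these regions also had a peak in the Ythdc1 controls. Folds there were 5.06 and 4.97 for Pla2g10os, 7.11 and 7.43 for the Cltb intron, and 7.17 and 8.88 for Gm21596. Vps72 had 7.07 in library 2 only, and Specc1 had none. KO1 folds were 4.8 and 4.12 for Pla2g10os and 5.96 and 6.01 for Gm21596. A single KO1 library held Specc1 (5.21) and Cltb (5.53), and neither held Vps72.

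Outside genes and on the strand opposite to genes the tallest gained regions exceeded those in genes. The region antisense to Tsga10ip (chr19:5399560-5399843, plus) had KO2 folds of 24.8 and 19.8 with pile-ups of 423 and 334 reads, against 6.36 and 4.29 in KO1. Regions antisense to Lemd3 (chr10:120967739-120968162, plus) and Gsdmc4 (chr15:63909192-63909442, plus) stood at 14.2 and 18.4 and at 14.4 and 17.5. An intergenic region at chr19:9512337-9512622 minus had 15.5 and 16.4 and no peak in KO1 or the Ythdc1 controls. The tallest lost region outside genes, at chrX:121739011-121739575 minus, had control folds of 11.3 and 10.1, and 9.8 and 10.7 in the Ythdc1 controls. KO1 had 4.26 and 3.85 there. These regions were chosen after their values were seen.

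The strongest kept regions were taller than the lost and gained ones named above in genes. Usp35, a deubiquitinase, had 29.2 and 28.2 in the controls and 28.5 and 25.5 in KO2 over its coding exon. Rerg, a small GTPase, had 24.8 and 23.2 against 27.6 and 25.6 in an intron, and Pik3ca, the catalytic subunit of phosphoinositide 3-kinase, 22.9 and 21.4 against 22.7 and 22.9 in a coding exon. Introns of Rnf220 (20.5 and 18.6 against 21 and 32.6) and Pid1 (19.9 and 18.9 against 27.8 and 28.8) were the other 2 of the 5 strongest kept regions. The rule asks for height in all 4 libraries, so these regions do not stand for kept regions as a whole, whose median fold was 5.93 and 5.76 in the controls and 5.42 and 5.47 in KO2. Sox11, a neural transcription factor gene, for example had 22.9 and 16.9 in its coding exon in the controls and 11.4 and 10.5 in KO2.

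Loss was uneven over kinds of sequence. Outside genes 1797 of 5860 control regions were lost (30.7%), and on the strand opposite to a gene 857 of 2920 (29.3%). The share was 24.5% within 2000 bp upstream of a gene, 18.9% in non-coding exons, 17.4% in introns (2471 of 14173) and 15.1% in 5′ UTRs. It was lowest in 3′ UTRs, at 11.6% (503 of 4334), and in coding exons, at 11.0% (887 of 8028). Both KO2 libraries showed this order on their own: 36.4% and 39.2% of intergenic control regions, 23.0% and 24.6% of intronic ones and 14.2% and 14.6% of coding exon ones were absent from KO2 libraries 1 and 2. All 8 mitochondrial control regions were still present in at least 1 KO2 library.

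Gain followed a similar but not identical order. Antisense regions were gained most often, 658 of 2534 (25.97%), before promoter-proximal ones (20.4%), intergenic ones (18.9%, 838 of 4435), introns (16.1%, 2190 of 13638) and non-coding exons (14.6%). The antisense share depended on keeping the strands apart. With peaks merged without regard to strand it was 20.3% of 1907 regions, near the 18.8% of intergenic ones. Coding exons stood at 10.2% (803 of 7877), 5′ UTRs at 9.65% and 3′ UTRs at 8.07% (327 of 4051). Intergenic loss exceeded coding exon loss in each of the 5 height bins. In the lowest height bin 49.6% of intergenic and 23.9% of coding exon control regions were lost, and in the fourth 18.8% and 5.36%. In the lowest bin intergenic and coding exon regions were gained about equally often, at 19.7% and 20.3%. Antisense gain stayed high in the tallest peaks: 16.3% of antisense KO2 regions in the highest bin were gained, against 11.8% of intergenic, 4.04% of intronic and 1.19% of coding exon ones.

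**Figure D1:**
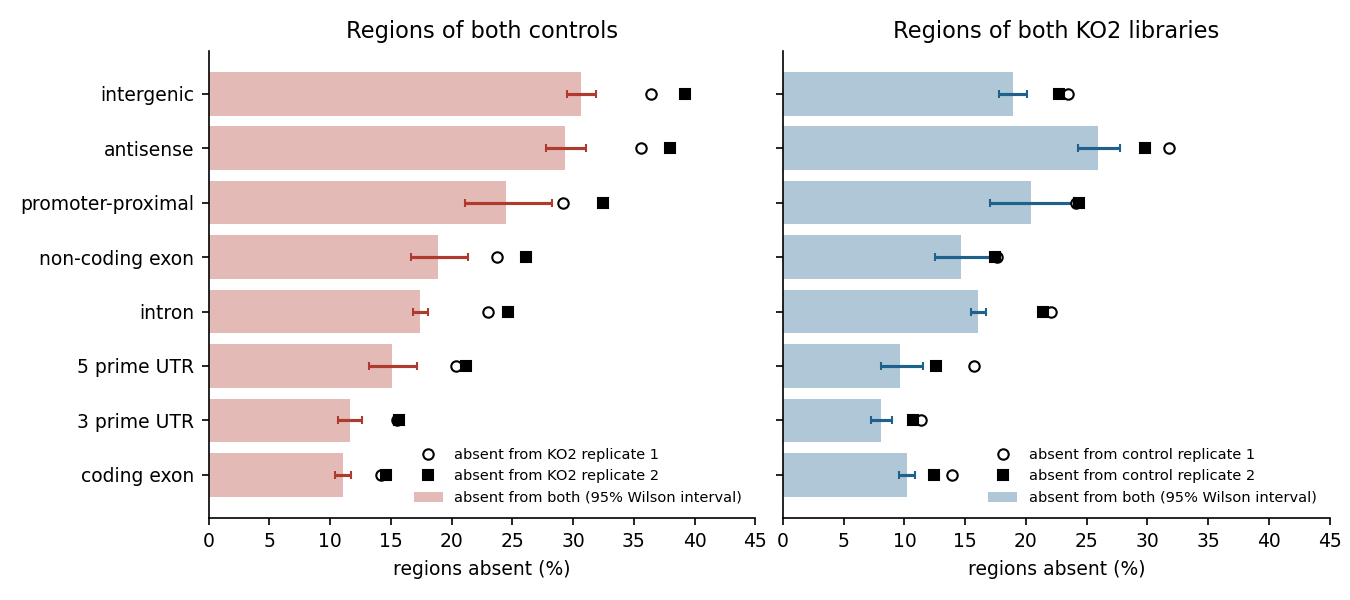
Percent of regions of both controls absent from KO2 (left) and of regions of both KO2 libraries absent from the controls (right) on the x axis, per class of sequence on the y axis. Bars are regions absent from both libraries of the other group with 95% Wilson intervals that cover counting error only, and circles and squares are regions absent from each single library. Intergenic and antisense bars are longest among the lost (30.7% and 29.3%) and the antisense bar among the gained (25.97%).

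**Figure D2:**
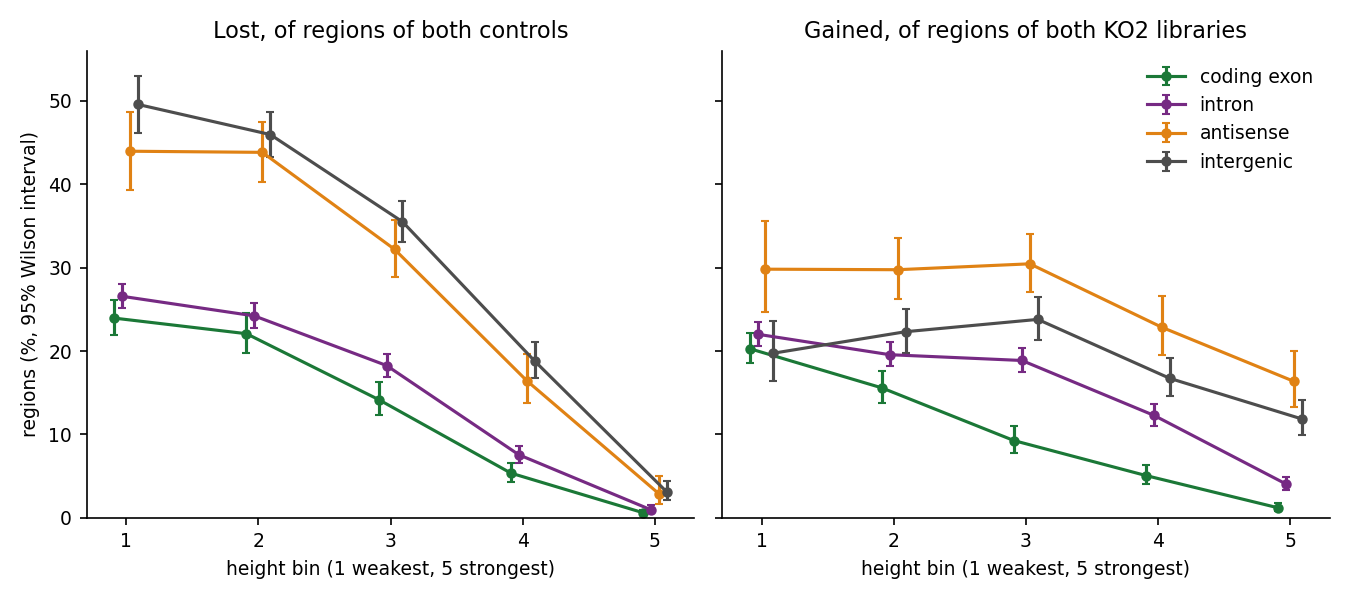
Percent of control regions lost (left) and of KO2 regions gained (right) on the y axis, by bin of peak height from weakest to strongest on the x axis, for 4 classes of sequence (colours) with 95% Wilson intervals. Lost shares fall from 49.6% to 3.10% outside genes and from 23.9% to 0.614% in coding exons, and antisense gain stays at 16.3% in the strongest bin.

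The gained share of intronic regions was highest in short genes and short introns, although most gained intronic regions lay in longer genes. Of KO2 regions in introns of genes under 10 kb long, 246 of 751 (32.8%) were gained, then 24.9% at 10 to 30 kb (622), 15.8% at 30 to 100 kb (731 of 4639), 10.6% at 100 to 300 kb, and 166 of 1762 (9.42%) in genes of 300 kb or more. Loss showed no such slope, with 17.1%, 17.9%, 15.7%, 16.7% and 22.2% over the same bins. The gained share also went down with intron length, from 32.4% in introns under 0.5 kb to 9.48% in those of 100 kb or more. Over all regions within a gene the median host gene was 41.7 kb long for gained, 88.6 kb for kept and 100.5 kb for lost ones, and the median introns of intronic regions were 4.70, 13.4 and 16.3 kb. Within the lowest height bin 41.3% of KO2 intron regions in genes under 10 kb were gained against 14.9% in genes of 300 kb or more, and in the highest bin 15.4% against 1.59%.

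The slope with gene length was also seen between single libraries of the 2 groups. Of intronic regions of KO2 library 1, 46.1%, 38.3%, 30.7%, 24.1% and 22.4% were absent from control library 1 from the shortest genes to the longest. For KO2 library 2 against control library 2 they went from 44.4% to 18.6%. Within KO2 the shares of library 1 absent from library 2 were 20.4%, 18.8%, 20.1%, 20.3% and 21.2%, and those of library 2 absent from library 1 went from 20.8% to 13.2%. In gain, regions in coding exons and UTRs behaved likewise. In genes under 10 kb 413 of 2528 such KO2 regions were gained (16.3%), and in genes of 300 kb or more 14 of 317 (4.42%). Unlike intronic loss, loss in coding exons and UTRs rose with gene length in each bin, at 9.47%, 10.2%, 11.9%, 13.6% and 23.0% (99 of 431). Non-coding exons are left out here, but the exonic regions of the background, motif and gene type values below include them. Along the gene, gained intronic regions were most frequent 2 to 5 kb from the gene start (25.3%) and least frequent 100 kb or more from it (10.02%).

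**Figure D3:**
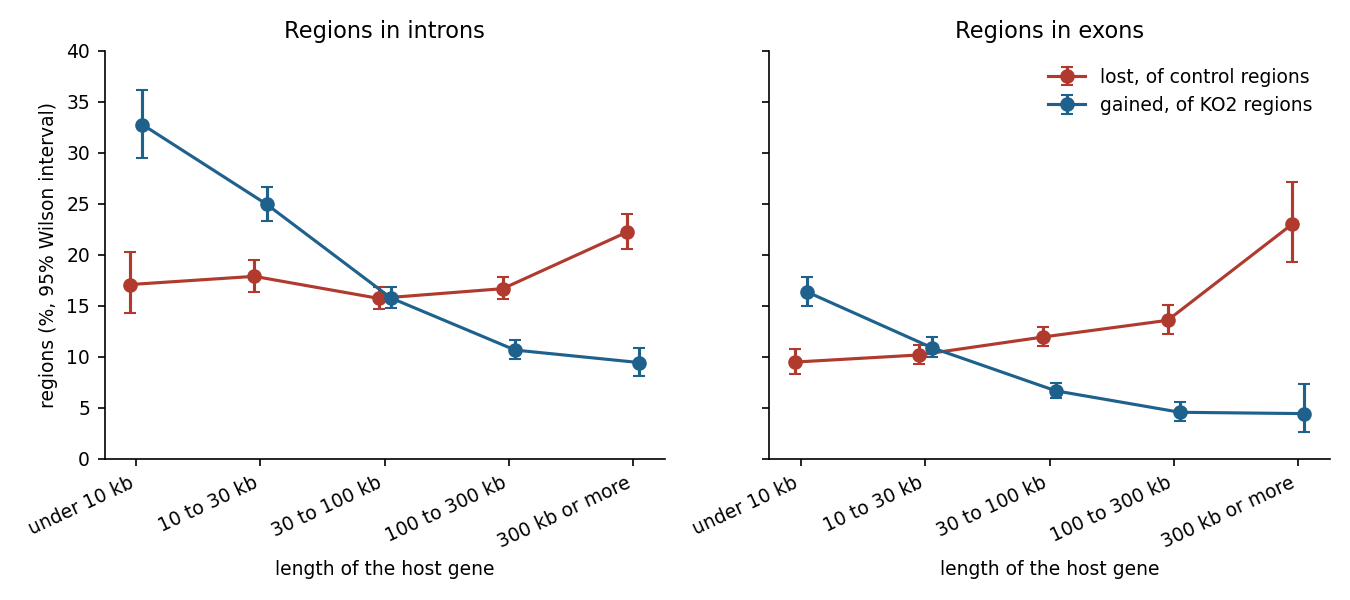
Percent of control regions lost and of KO2 regions gained (y axis, 95% Wilson intervals) by length of the host gene in kb (x axis), for regions in introns (left) and in coding exons and UTRs (right). In introns the gained share goes from 32.8% in genes under 10 kb to 9.42% in genes of 300 kb or more, while the lost share lies between 15.7% and 22.2%.

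In exons, the gained share was highest in short exons and varied along the transcript. Exons under 200 nt held 27.7% gained among their KO2 regions, against 15.6% in the next longer bin and between 5.57% and 5.77% in the 3 longer ones. The median exon was 367 nt long for gained, 775 nt for lost and 1080 nt for kept regions. Around the stop codon, where m6A of messenger RNA is known to be dense, 11.0% of KO2 regions within 100 nt were gained and 9.98% of control regions were lost. The gained share was 6.30% more than 1000 nt before the stop codon, 14.1% at 100 to 400 nt before it and 6.60% at 100 to 400 nt after it, and the lost share 13.7%, 7.19% and 9.12%. By distance from the transcript start the gained share was 12.9% in the first 100 nt, where 20.5% were lost, highest at 200 to 400 nt (16.1%) and lowest in the farthest bin (5.14%).

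The expected background under peaks differed between the groups as well. It was solved for every peak from the deposited fold and p-value, and compared with the most frequent background value of the same library and strand, which stands for the genome-wide level. That level was 16.38 and 18.15 reads on the plus strand of the controls and 16.12 and 14.92 reads in KO2. On the plus strand 56.6% and 55.95% of control peaks stood at it, against 46.7% and 44.98% of KO2 peaks. For kept exonic regions the background was more than 1% above the genome-wide level in 58.2% and 58.4% of the controls' regions and in 71.8% and 72.0% of KO2's, with median ratios to that level of 1.23 and 1.26 against 1.84 and 1.86. In kept exonic regions of genes under 10 kb the shares were 47.3% and 47.8% against 64.8% and 65.7%, and in genes of 300 kb or more they lay closer, at 56.8% and 58.9% against 60.3% and 58.2%. Among KO2 intron regions in genes under 10 kb, 178 of 500 with raised background (35.6%) and 42 of 165 at the genome-wide level (25.5%) were gained. In every other class and gene length bin the order was the reverse. Over all KO2 regions 11.7% with raised background and 19.4% at the genome-wide level were gained. The shares were 24.0% and 29.4% in introns of genes of 10 to 30 kb, and 14.9% and 19.6% in exons of genes under 10 kb. Whether the source of this background has a part in the gained peaks was not tested.

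**Figure D4:**
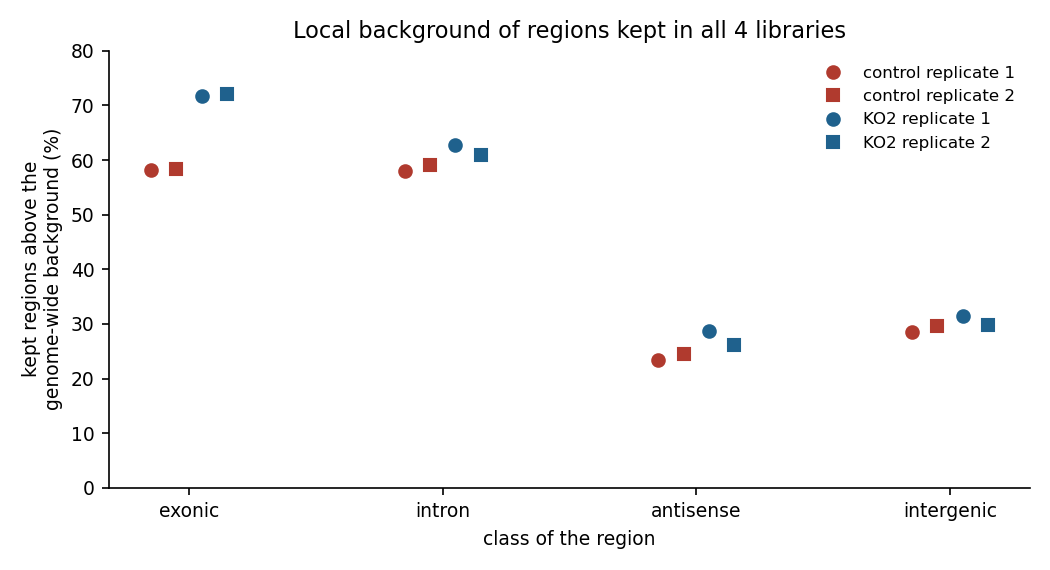
Percent of kept regions whose expected background lies more than 1% above the genome-wide level of their library and strand (y axis), per class of sequence (x axis), with 1 point per library. The groups do not overlap in any class plotted. The gap is widest for exonic regions, with 58.2% and 58.4% in the controls and 71.8% and 72.0% in KO2, while intergenic regions lie between 28.4% and 31.5%.

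Counted by gene, loss was usually partial. Of 10361 genes with a control region 2965 (28.6%) lost at least 1 region and 748 (7.22%) lost every one, and of 10419 genes with a KO2 region 2729 (26.2%) gained at least 1. Most of the 748 had a single control region: among genes with 2 or more, 111 of 6064 (1.83%) lost all of them. The most lost regions were counted for Gm20388 (19 of 53 control regions), a gene model of 4434.88 kb that overlaps other genes, so its regions may belong to those. Then came Hs6st3, a heparan sulfate sulfotransferase (18 of 58), the tumour suppressor Wwox (17 of 44), the sarcomere giant Ttn (15 of 44) and the glypican Gpc6 (14 of 30). Cadps2 (12 of 18), Grip1 (11 of 21), St6galnac3 (11 of 30), Ahnak2 (10 of 14) and Pcca (9 of 15) completed the 10. Most of these are long genes with many intronic regions of middling height, such as the strongest lost ones of Hs6st3 (8.51 and 7.36) and Wwox (7.26 and 7.06).

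Among genes that lost every control region, those with the most had 4 or 3. Eif4g3, a translation initiation scaffold, lost 4 of 4, the strongest with control folds of 9.49 and 7.88. At that region the Ythdc1 controls had 13.2 and 16.8, and KO1 had 6.07 and 5.09. Rnf157, a ubiquitin ligase, the transcriptional repressor gene Bcl6, the ion channel gene Calhm2 and Rasgrp4, a Ras exchange factor, each lost 4 of 4 as well, with Calhm2 gaining 1. Bcl6 had 5.24 and 4.7 in its strongest region. Nhs, the zinc finger gene Zfp521, the sodium/proton exchanger gene Slc9a9, Sel1l2 and the kinase gene Cdk18 each lost 3 of 3.

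The 10 genes with the most gained regions ranged from 11.4 kb (Prkcsh) to Gm20388, and Dpp6 (910.3 kb) and Mcc (387.1 kb) are long as well. AW822252 on chromosome X, the imprinted gene Gnas (the stimulatory G protein alpha subunit), the myosin gene Myh13, the potassium channel partner Dpp6 and Mcc gained 8 each. Then came Gm20388 with 7, and Nudt9, Cwc25, Prkcsh and Lrrn2 gained 6 each. AW822252 is annotated as a transcribed pseudogene, so reads there may be shared. Gnas, 62.4 kb long, had 8 gained among 11 KO2 regions, with folds from 7.13 and 5.78 in an intron (chr2:174289720-174290147, plus) to 2.05 and 2.79 in another. It kept its 5′ UTR region at chr2:174328634-174329115, with 6.87 and 3.92 in the controls and 6.04 and 5.92 in KO2. Cwc25, a spliceosome component of 21.1 kb, had 6 gained among 7 KO2 regions, 4 in introns and 2 in coding exons, and the strongest (chr11:97757608-97757945, minus) stood at 6.45 and 8.95. Its 3′ UTR region was kept, at 10.7 and 12.6 in the controls and 7.12 and 12.9 in KO2. The other spliceosome genes looked up, chosen after their values were seen, were Snrnp70 with 5 gained and 2 kept regions, and Sf3b2 with 5 gained, 2 kept and 1 lost.

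In the gene lists that follow, counts are to be read against all genes, of which 7.22% lost every control region and 26.2% gained a region, and against all regions, of which 18.4% were lost and 14.7% gained. The writers and readers of m6A kept most of their regions. Of the 12 genes of the writer complex 11 had a control region and none of these lost every one. Of their 32 control regions 31 were kept and 1 was lost, in an intron of Wtap (4.2 and 4.37). Wtap, whose protein anchors METTL3 and METTL14, gained a coding exon region (5.12 and 4.7) and kept its 3′ UTR region, at 10.9 and 11.2 in the controls and 2.63 and 11.2 in KO2. Cbll1, the ubiquitin-ligase-like subunit, kept 12.4 and 11.2 against 8.56 and 9.93. Virma gained an intronic region (4.93 and 4.64). Among readers and erasers 8 of 12 genes with a KO2 region gained one (66.7%; by region 13 of 64, 20.3%), Igf2bp1 with the strongest (6.65 and 6.61), and 2 of 13 lost every control region (15.4%). Those were Hnrnpa2b1, whose lost region was weak (1.86 and 2.64) and which gained 3 others, and Rbmx (3.35 and 4.03). Hnrnpa2b1 and Rbmx have related copies in the genome whose reads may be shared, so their counts are uncertain. Nuclear RNA decay genes stood near the shares over all genes: 1 of 16 lost every region (6.25%, Exosc9) and 4 of 16 gained one (25%). Exosc9 was also among those with a gain. Its lost intronic region had 3.06 and 5.52 in the controls, and a gained intronic one had 5.72 and 7.39 in KO2.

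Pluripotency genes held their peaks in both groups. This is a check of the labelled cell type and not of the genotype: 31 of the 36 listed genes had a control region and 31 a KO2 region. Of their 99 control regions 3 were lost (3.03%), in Jarid2, Nr5a2 and Utf1, and 90 were kept. Utf1, a chromatin-bound factor of undifferentiated cells, lost its single region (chr7:139944093-139944291, plus), which had 7.65 and 8.82 in the controls and 8.63 and 9.05 in the Ythdc1 controls. The transcription factor gene Gbx2 held one of the strongest kept ones (11.3 and 11.6 against 13.8 and 6.93). In 9 of 31 genes (29.03%, against 26.2% of all genes) a region was gained, and by region 10 of 102 (9.80%, against 14.7%). The 9 genes were Dppa3, Gdf3, Jarid2, Klf5, Myc, Nanog, Pou5f1, Sall4 and Tet2. The coding exon of Myc (chr15:61987216-61988168, plus) had 7.77 and 9.99 in KO2 with no peak in the Mettl3 controls. KO1 had 5.26 and 5.09 there, and the Ythdc1 controls 4.58 and 4.02. The 3′ UTR region of Myc was kept with 5.29 and 4.8 in the Mettl3 controls and 11.2 and 9.89 in KO2. Pou5f1 and Nanog gained weak regions, with 2.27 and 2.68 and with 2.67 and 2.61 in coding exons of Pou5f1 and 3.12 and 3.22 in a Nanog intron. Both genes have near-identical pseudogenes, so reads there may be shared.

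Immediate early genes as a list lost a share of regions near that of all regions. Of 21 such genes with a control region 3 lost every one (14.3%, against 7.22% of all genes). All 3 encode FOS-type subunits of AP-1: Fos (2 regions), Fosb (2) and Fosl2 (1). The FOS-type genes were singled out after their values were seen. The 3′ UTR region of Fos (chr12:85475488-85476766, plus) had 11.9 and 8.63 in the controls and 8.12 and 6.69 in KO1, and no peak in KO2 or the Ythdc1 controls. The second Fosb region, in the 3′ UTR, had 10 and 11.5, and the Fosl2 one 5.06 and 5.9. Jun, the partner of the FOS proteins, kept its 3′ UTR region, with 16.3 and 13.8 in the controls and 13.9 and 12.8 in KO2, as did the signalling inhibitor gene Spry2 in its 5′ UTR (16.8 and 18.7 against 9.77 and 13.2). In all, 8 of the 37 control regions of the list were lost (21.6%), against 18.4% of all control regions.

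Fibroblast markers, included as a cell type a stem cell culture could hold, lost a larger share of regions than all genes did. The list held Ccdc80, Inhba and Csf1 because earlier results of these data had named them, so it is not independent evidence. Of its 28 genes 15 had a control region and 9 a KO2 region, 6 lost every region (Col1a1, Col1a2, Col5a2, Inhba, Lox and Loxl2), and 13 of 27 control regions were lost (48.1%, against 18.4% of all control regions). With those 3 genes left out, a choice made after seeing the data, 5 of 12 genes lost every region (41.7%, against 7.22% of all genes) and 9 of 21 regions were lost (42.9%). The collagen regions were of low fold, with 3.54 and 4.32 in Col1a1 and 3.91 and 3.24 in Col1a2. Sparc (6.31 and 3.95) and Vim gained a region, and Col3a1, Col6a1, Pdgfra, Postn, Dcn and Lum had no region in any of the 4 libraries. Peak lists carry no transcript level, and the part of other cells in the losses was not tested.

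Markers of other lineages were few. Trophoblast genes had 4 members with a control region and 9 with a KO2 region, of which 5 gained one (55.6%, against 26.2% of all genes): Cdx2 in the 3′ UTR (5.91 and 5.76) and a coding exon (6.16 and 4.77), H19 (5.36 and 4.37), Krt18 (4.67 and 4.46), Rhox6 and Rhox9 (8.8 and 9.93). H19, Krt18 and Rhox9 had peaks at these regions in the Ythdc1 controls, and Cdx2 had none there or in KO1. Mesoderm markers gained a region in 3 of 4 genes with one in KO2, Gsc (6.28 and 6.09), T (4.97 and 5.03) and Twist1, while Eomes kept its coding region (5.35 and 5.12 against 6.19 and 6.66). Of primitive endoderm markers 1 of 3 lost all (Col4a2) and Col4a1 gained a region (4.68 and 10.1). Among neural markers 1 of 6 lost all (Zfp521) and Neurog1 gained a region (5.3 and 3.84). By region 4 of their 10 control regions were lost (40%, against 18.4% of all control regions), in Zfp521 and Nes. Nes, the neural intermediate filament, kept its strong region (19.8 and 19.9 against 14.3 and 13.9). Primed state genes lost all in 0 of 14 and gained in 2 of 15, and Sox4 and Sox11 kept strong regions. The 2-cell-like list lost 8 of 31 control regions (25.8%), with 3 of 19 genes losing all (Tcstv3, Usp17la, Zfp352) and no gain in 14 genes. The Zscan4 and Usp17l families are multi-copy, so their assignment is uncertain.

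Signalling and stress lists showed loss and gain side by side. Wnt targets lost every region in 0 of 13 genes and gained one in 6 of 16 (37.5%, against 26.2% of all genes), with Axin2 keeping 13.9 and 14.7 against 11.5 and 10.1. In the activin, Nodal and BMP pathway Inhba alone of 26 genes lost all (3.85%, against 7.22% of all genes), 4 of 25 gained (16%), and the receptor gene Bmpr2 both kept a strong intronic region (22.6 and 20.3 against 11.6 and 14.8) and gained another (4.5 and 5.21). Of p53 response genes 1 of 16 lost all (6.25%, Ccng1) and 5 of 16 gained (31.3%), Sesn1 with the strongest (7.95 and 5.97).

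By region the chromatin lists gained less than the 14.7% over all KO2 regions, at 8.51% for H3K9, 6.79% for H3K4, H3K27 and H3K36, and 10.5% for remodelers. H3K9 methylation and silencing genes lost every region in 0 of 21 and gained in 4 of 22 (18.2%), and Ehmt1, an H3K9 methyltransferase, kept an intronic region with 16 and 18.3 in the controls against 12.2 and 11.7 in KO2. Regulators of H3K4, H3K27 and H3K36 lost every region in 0 of 26 and gained in 9 of 27 (33.3%). Chromatin remodelers gained in 15 of 24 (62.5%), Smarcc2 with the strongest (6.55 and 8.85). They lost all in 2 of 24 (8.33%), Smarcb1 and Smarca2, and Smarca2 also gained at least 1 region. Remodeler genes carry many regions each, and the gained ones were 20 of the 190 KO2 regions of remodelers. Replication-dependent histone genes lost none of 21 and gained in 3 of 28 (10.7%), with shared reads possible between copies. SR proteins and speckle factors lost all in 1 of 23 (4.35%, Srsf12) and gained in 5 of 22 (22.7%). Long non-coding RNAs lost all in 2 of 22 (9.09%), Platr31 and Xist, and gained in 4 of 22 (18.2%). Both lost Xist regions lay in its exons (8.1 and 7.19, and 4.51 and 5.97), and a region between them was found in both KO2 libraries and 1 control.

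Ribosomal protein genes gained a region more often than all genes did (26.2%). They are short, highly transcribed genes, and 18 of 52 had a control region but 39 a KO2 region. In 20 of those 39 (51.3%) a region was gained, and by region it was 21 of 48 (43.8%, against 14.7% over all KO2 regions). The strongest, in a coding exon of Rpl15, had low folds of 3.12 and 2.99. None of the 18 lost every region. Ribosomal protein genes have many pseudogenes, so reads may be shared. Of numbered zinc finger genes 8 of 318 lost every region (2.52%, against 7.22% of all genes) and 39 of 317 gained one (12.3%, against 26.2%). Zfp1 kept 20 and 17.1 against 17.3 and 14.6. Mitochondrially encoded genes lost and gained none in 5, mt-Nd4 keeping folds of 3.79 and 3.96 against 2.71 and 3.25. Every one of these lists was chosen with results of these data known.

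The core motif had a like share under lost and kept exonic peaks and a lower one under gained peaks. GGAC lay within 50 nt of the summit, on the transcript strand, in 51.3% of lost (95% Wilson interval 49.0 to 53.6, n = 1779), 52.4% of kept (51.5 to 53.3, n = 11745) and 42.8% of gained exonic regions (40.2 to 45.4, n = 1374). In windows shifted by 1000 nt along the same transcripts the shares were 38.2%, 36.03% and 33.9% (n = 1629, 10748 and 1005). Regions on transcripts too short for a shifted window drop out there, most of all among the gained, so the shifted sets are not fully matched. DRACH, which includes GGAC when A, C or T follows, was present in 92.2%, 93.6% and 88.8%, against 87.7%, 86.5% and 84.1% in the shifted windows. Read the other way, 8.26% of exonic KO2 regions with GGAC were gained and 11.5% of those without, and the same sign held in each of the 5 height bins, from 15.8% against 19.5% in the lowest to 1.44% against 1.87% in the highest. The lost share was 11.9% with GGAC and 12.4% without, but within height bins it was higher with GGAC in 4 of 5, from 27.6% against 24.2% in the lowest to 0.740% against 0.548% in the highest, and lower in the second (22.9% against 24.6%). The letters of introns and intergenic regions were not analysed here.

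By type of gene, exonic loss was 18.6% in long non-coding RNAs, 18.7% in pseudogenes and 11.6% in protein-coding genes, and gain 9.25%, 19.9% and 9.49%. Pseudogenes share sequence with their parent genes, so those regions are uncertain.

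The Ythdc1 control libraries, from the same study and sharing no library with the comparison, held a peak at most kept regions and at fewer of the others. A peak was present there at 80.9% and 79.5% of kept regions, at 45.3% and 43.0% of lost, at 55.0% and 52.8% of partly lost, and at 34.7% and 33.8% of gained regions. The gap was present within height bins: in the lowest bin 46.2% of lost and 73.1% of kept control regions had a peak in Ythdc1 control library 1, and in the fourth 60.5% and 82.9%. Among the 91 lost regions of the highest bin the share was 71.4%, against 94.6% of kept ones. For gained regions it did not go up with height, at 49.2% in the lowest bin, 26.7% in the third and 32.9% in the highest.

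Chromosomes differed in gain more than in loss. The gained share was 19.98% on chromosome 7, 19.7% on X and 18.5% on 11, against 9.34% on chromosome 12, 9.83% on 13, 10.5% on 8 and 11.5% on 14. Loss was 21.7% on chromosomes 8 and 14, 21.1% on 6 and 20.8% on X, and 13.7% on 19. On Y, with few regions, 32.1% of 78 KO2 regions were gained and 29.9% of 77 control regions lost. Chromosome 8 held 6.39% and 6.48% of control peaks but 5.76% and 5.78% of KO2 peaks, chromosome 12 held 4.58% and 4.50% against 4.11% and 4.07%, and chromosome 7 held 6.70% and 6.66% against 7.40% and 7.54%. In all 3 the groups did not overlap, and the same held on X (3.24% and 3.20% against 3.40% and 3.37%) and on Y. The share of peaks per library was taken for no other chromosome. With 2 libraries a group such a gap does not by itself set a chromosome apart. Copy number was not measured, and its part in these shares was not tested.

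**Figure D5:**
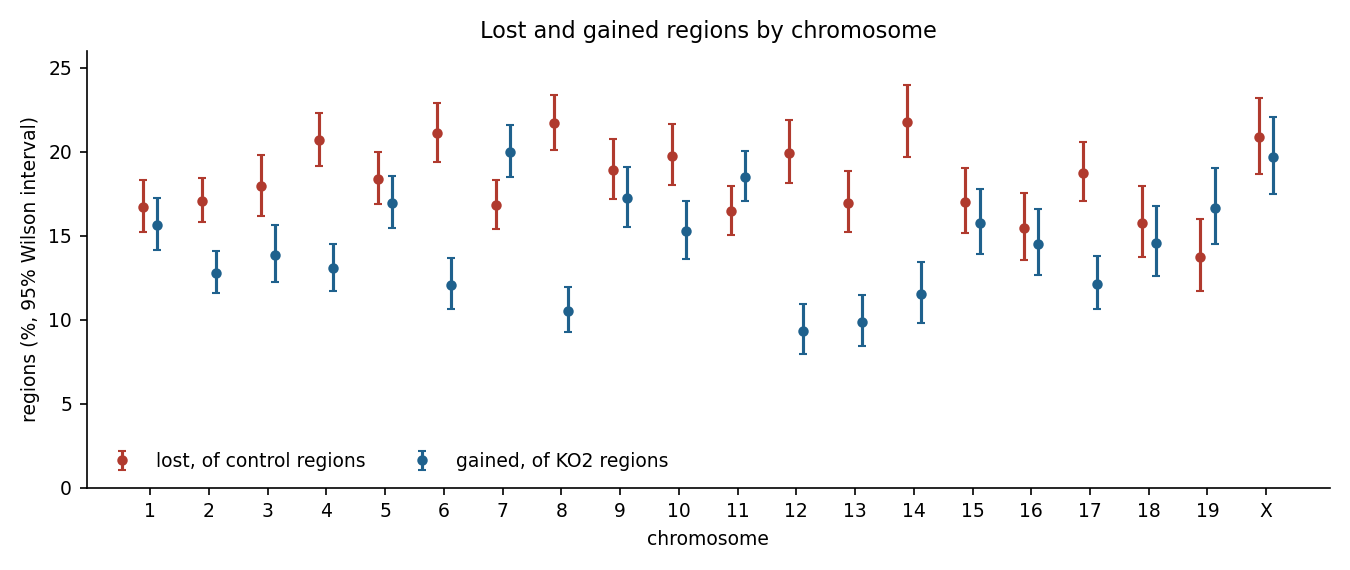
Percent of control regions lost and of KO2 regions gained (y axis, 95% Wilson intervals) on chromosomes 1 to 19 and X (x axis). Gain is highest on chromosomes 7, X and 11 and lowest on chromosome 12, at 9.34%.

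Outside genes, some lost and some gained regions lay next to others of the same state. Runs of kept regions, and the number of runs to be met from density alone, are not given here. Counting regions of one state on the same strand at most 10 kb apart with no region of another state between them, 428 of 1933 lost regions outside genes (22.1%) fell into 197 runs, and 118 of 937 gained ones (12.6%) into 52 runs. The longest run was gained, 7 regions over 9.383 kb at chr4:54821565-54830947 plus, with folds from 3.62 to 10.6, at 114.1 kb from Zfp462 on the same strand. Of the 10 gained runs of 3 or more regions the other 9 had 3 each. The 4 of these with the highest folds lay at chr11:59388158-59395979 plus, chr12:83600947-83606492 minus, chr9:57478410-57479907 minus and chr12:18154572-18165273 plus. The longest lost runs had 4 regions each, at chr9:88810594-88821201 minus, 18.0 kb from Trim43c, and at chr9:40134019-40138987 minus, 3.83 kb from the olfactory receptor gene Olfr985 on the same strand. The 3 lost runs of 3 regions with the highest folds lay at chr8:19042493-19045414 minus near the defensin gene Defb39, at chr6:42013193-42015251 plus and at chr2:132886305-132888373 minus.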

How the data were processed

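The data were peak lists per library and strand from m6A immunoprecipitation of chromatin-associated RNA. Reads were handled with CASAVA, Trimmomatic 0.38, HISAT2 2.1.0 and MACS2 on mm10, per the submitters' processing notes; of MACS2 the version, the settings and any use of the input are not given in the sources used here. Deposited columns are an integer score, the fold (a ratio) at the summit, and −log10 p and −log10 q per peak, as the authors' peak caller wrote them. No counts per library were used here, so depth is known from the solved pile-ups alone. Pile-up and background were solved from fold and p, and 99.9994% of 179327 pile-ups came out whole within 0.02 reads. Contigs outside the chromosomes were left out, and regions were classed by the summit of the strongest peak with GENCODE M21 (55450 genes, 81033 transcripts), exons first. Python 3.11.15 and SciPy 1.17.1 were used, with exact permutation tests over libraries, and the steps were tested on simulated data. No test was run over regions or genes. Genes were named by rule: the 2 targeted genes, the 10 strongest lost and gained regions in genes, the 5 strongest kept, the 10 genes with most lost, most gained and all lost regions, up to 4 members per list, and the 5 longest runs. A gene and a sequence that these rules name are not reported here. Regions outside or antisense to genes, sequence windows in further coding exons and the further regions of single genes were chosen after their values were seen. The comparison, its members and the 24 gene lists were chosen with earlier results of these data known. Alternatives were stricter thresholds, equal list sizes, other merging and overlap rules, other classes, and leaving out each library.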

Additional observations from a re-analysis of the deposited data

How the results depend on the processing

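Limits: peak presence depends on depth and background, which no input was used to separate, and 2 libraries a group allow no p under 0.05. Over the other alternatives lost regions numbered 6026 to 7165 and gained ones 4811 to 5539. The lost share of control regions was 18.0% with −log10 q of at least 5 asked where the peak must be present, 17.0% with equal numbers of strongest peaks per list and 17.9% with peaks up to 200 bp apart merged. The gained share of KO2 regions was 16.1% with equal numbers and 14.1% when merged without regard to strand. The latter merging lowered the gained share of antisense regions from 25.97% to 20.3%. Among genes with 2 or more control regions 111 of 6064 lost all of them (1.83%, against 7.22% of all genes with a control region). Leaving out each library in turn gave 8927 to 11824 lost regions (23.3% to 25.6% of control regions) and 6530 to 8906 gained ones (18.5% to 20.9% of KO2 regions), since fewer libraries then had to hold or lack a peak. The sign of 3 small differences per library, KO2 minus control in percentage points, turned when a library was left out: the 3′ UTR share ranged from -0.141 to 0.0960, the 5′ UTR share from -0.0430 to 0.0540, including -0.0203 without control library 1, and the promoter-proximal share from -0.0614 to 0.0152. Replicate numbers gave no pairing from the labels, and deviations of same-numbered libraries correlated at 0.00363 over 26854 kept regions. With a replicate block the difference in peaks per library, KO2 minus control, was -2363.5, exact paired permutation p = 0.5, the smallest it can give, and the block changed no other call. The number of genes that lost every region was 6 for the fibroblast list and 3 for the immediate early list in each of the 8 alternatives that kept all 4 libraries and all members, and 6 to 8 and 3 when a library was left out. In bins of −log10 p the mean share absent per KO2 library was 50.96% in the weakest bin and 0.576% in the strongest, against 38.2% and 2.11% in bins of fold.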
